A study of Mus musculus with 11 samples.

Results

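The lysyl oxidases and the collagen lysyl hydroxylases are the enzyme families that prepare lysines of fibrous matrix proteins for cross-linking. The 8 mouse genes examined were the oxidases Lox, Loxl1, Loxl2, Loxl3 and Loxl4 and the hydroxylases Plod1, Plod2 and Plod3. They were taken by gene symbol from the 48299 genes of the table of estimated counts, and each was read in all 11 libraries. The set was chosen by results of these libraries already in view, among them the CPM and fold change of Lox, known to be lower in the cells carrying the Map3k7 hairpin. For comparisons of those cells with cells lacking that hairpin, values are therefore given as a description and without p-values, and counts of called genes stand beside those of all genes with nothing read from them.

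The libraries are bulk RNA-seq of WFU3, a mouse prostate epithelial stem cell line that carries lentiviral short hairpins against Map3k7 (the kinase TAK1), against the chromatin remodeler Chd1, or control hairpins. The shControl group (n = 3) comprised an unnumbered line with puromycin and neomycin control hairpins at passage 30, here replicate 1, and control lines 4 and 5 with GFP and puromycin control hairpins, both at passage 52, here replicates 2 and 3. The shMap3k7 group (n = 2) comprised clone 1 at passage 49 and clone 7 at passage 47, both with the GFP-marked Map3k7 hairpin and a puromycin control hairpin. The shChd1 group (n = 2) was control line 4 with the Chd1 hairpin 96526 (passage 52) or 96528 (passage 50), and the shDouble group (n = 4) was Map3k7 clone 1 (passage 49) and clone 7 (passage 48), each with either Chd1 hairpin. Every library thus carried hairpin vectors, and the 11 libraries came from 5 lines, so that libraries of 1 line are not independent lines. The labels do not say whether same-line libraries came from separate cultures, and p-values measure only the spread between these samples.

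Lysyl oxidases are secreted, copper-dependent amine oxidases that turn lysine and hydroxylysine side chains of collagen and elastin into aldehydes, which then condense into covalent cross-links. Lysyl hydroxylases are iron-dependent enzymes of the endoplasmic reticulum that act earlier, on newly made collagen chains, and the hydroxylysines they leave set the kind of cross-link and serve as anchors for sugars. Epithelial cells make both families, although fibroblasts are the best known source of Lox.

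Library totals ran from 14132371 to 23163709 counts. Levels are given as CPM, counts relative to the library total after TMM scaling (a trimmed mean of log ratios between libraries), and 3 counts in a library corresponded to 0.133 to 0.217 CPM. Map3k7 was at 124 to 140 CPM in shControl, 138 CPM in both shChd1 libraries and 39.3 to 43.0 CPM in the 6 libraries of the Map3k7 clones. Chd1 was at 195 to 212 CPM in shControl and 145 and 150 CPM in shChd1, and at 221 and 238 CPM in shMap3k7 and 162 to 198 CPM in shDouble. It was lower in 6 of 6 libraries with a Chd1 hairpin than in their own line without one, at 73.5% to 89.7% of that level in the Map3k7 clones, while the shDouble and shControl ranges overlapped. All 9 epithelial markers passed the expression filter, and their summed level was 4810 to 10810 CPM in shControl, 2663 to 2969 CPM in shChd1 and 10677 to 11355 CPM in the Map3k7 clones. Krt8, Krt14 and Krt18 made up most of that sum, and the single markers did not move together. Cdh1 was at 248 to 459 CPM in shControl and 728 to 798 CPM in the Map3k7 clones. Trp63 went the other way, at 5.17 to 12.1 CPM in shControl and 0.521 to 2.34 CPM in those clones.

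Lox, the founding oxidase (chromosome 18, 52516067 to 52529867, minus strand, GRCm38), was abundant in every line without the Map3k7 hairpin and far lower in both Map3k7 clones. In shControl it was at 168, 381 and 248 CPM, and in shChd1 at 395 and 304 CPM. In shMap3k7 it was at 8.58 CPM in clone 1 and 2.61 CPM in clone 7. In shDouble it was at 11 and 13.6 CPM in clone 1 and at 1.98 and 0.891 CPM in clone 7. The 6 libraries of the Map3k7 clones lay below all 5 others, with a gap between 13.6 and 168 CPM, and the lowest values were in clone 7. The order of group means was shChd1 (350 ± 64.2 CPM, SD, n = 2), shControl (266 ± 107, SD, n = 3), shDouble (6.88 ± 6.39, SD, n = 4) and shMap3k7 (5.60 ± 4.23, SD, n = 2). Neighbours on each side of the gap overlapped in range. The mean was 2.10% of the shControl mean in shMap3k7 and 2.59% in shDouble, and over 3 libraries each it was 4.16% in clone 1 and 0.687% in clone 7. The fitted log2 difference from shControl was -5.55 ± 1.03 (SE) in shMap3k7 and -5.24 ± 0.74 in shDouble, and shDouble differed from shChd1 by -5.64 ± 0.77. In bulk RNA, fewer Lox-expressing cells and less Lox RNA per cell cannot be told apart.

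**Figure D1:**
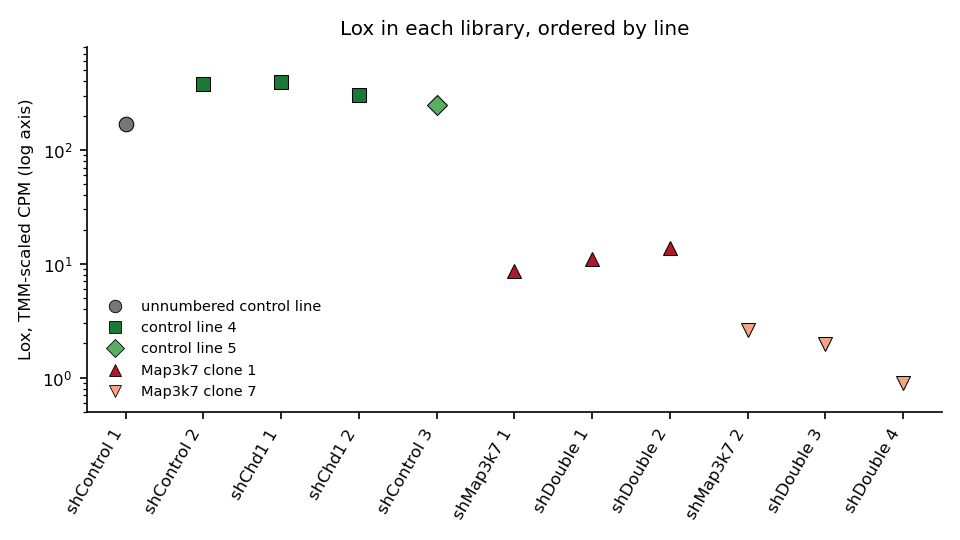
Lox in each of the 11 libraries, as TMM-scaled CPM on a log axis, ordered by line; 1 point is 1 library and shape and colour give the line. The 5 libraries without the Map3k7 hairpin lie between 168 and 395 CPM, clone 1 between 8.58 and 13.6 CPM and clone 7 between 0.891 and 2.61 CPM.

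In sum, the fibroblast marker list was lower in the Map3k7 clones, as Lox was. Its summed level over 10 genes was 82.3 to 360 CPM in shControl, 446 to 495 CPM in shChd1 and 5.11 to 12.5 CPM in the Map3k7 clones, where Pdgfrb was at 0 to 0.0724 CPM and Pdgfra, at 3.92 to 8.84 CPM against 10.0 to 12.0 CPM in the other lines, made up much of what was left. In the other lines the collagens Col6a1, Col6a2 and Col3a1 made up most of the sum. Col6a1 was at 49.8 to 257 CPM there and 0.357 to 3.58 CPM in the clones. Fap had 0 to 2 counts in every library. Lum was at 0 counts in all 11 libraries and Thy1 in all but shControl replicate 1, which had 1 count. Dcn was at 8.24 CPM in that replicate, at 0 to 4 counts in the other 4 libraries without the Map3k7 hairpin and at 0 in the clones. Within shControl, replicate 2 had the highest fibroblast sum (360 CPM) and the most Lox (381 CPM). Replicate 1 had a fibroblast sum of 317 CPM and Lox at 168 CPM, and replicate 3 had 82.3 CPM and 248 CPM. The part of the fibroblast marker difference in the Lox result was not tested.

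Loxl4, an oxidase with scavenger receptor domains (chromosome 19, 42593982 to 42612813, minus strand), was not lower in the Map3k7 clones. It was at 24.3, 26.6 and 42.3 CPM in shControl and at 23.1 and 22.8 CPM in shChd1. In shMap3k7 it was at 48.1 CPM in clone 1 and 26.2 CPM in clone 7, and in shDouble at 47.1 and 46.6 CPM in clone 1 and 28.3 and 33.5 CPM in clone 7. The ranges of the Map3k7 clones and of shControl overlapped, clone 1 lay above every control library and clone 7 lay inside the control range. The log2 difference from shControl was 0.26 ± 0.31 in shMap3k7 and 0.33 ± 0.26 in shDouble, each about the size of its error.

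The make-up of the oxidase family differed accordingly between the 2 sets of lines. On the scale of CPM per kilobase of exon, which allows genes to be compared, Lox made up 83.4% to 92.1% of the summed oxidase level in shControl and 91.6% to 93.2% in shChd1. It made up 8.06% to 13.5% in shMap3k7 and 2.24% to 20.3% in shDouble. Loxl4 made up 7.29% to 16.1% in shControl, 6.18% to 7.79% in shChd1 and 78.6% to 95.5% in the Map3k7 clones. Lox was thus 5.17 to 12.6 times Loxl4 in the shControl libraries, while Loxl4 was 3.88 to 42.6 times Lox in the libraries of the clones. The summed oxidase level was 42.0 to 86.6 CPM per kilobase in shControl, 69.5 to 88.7 in shChd1 and 6.77 to 14.1 in the Map3k7 clones, so the higher share of Loxl4 came with a smaller total.

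**Figure D2:**
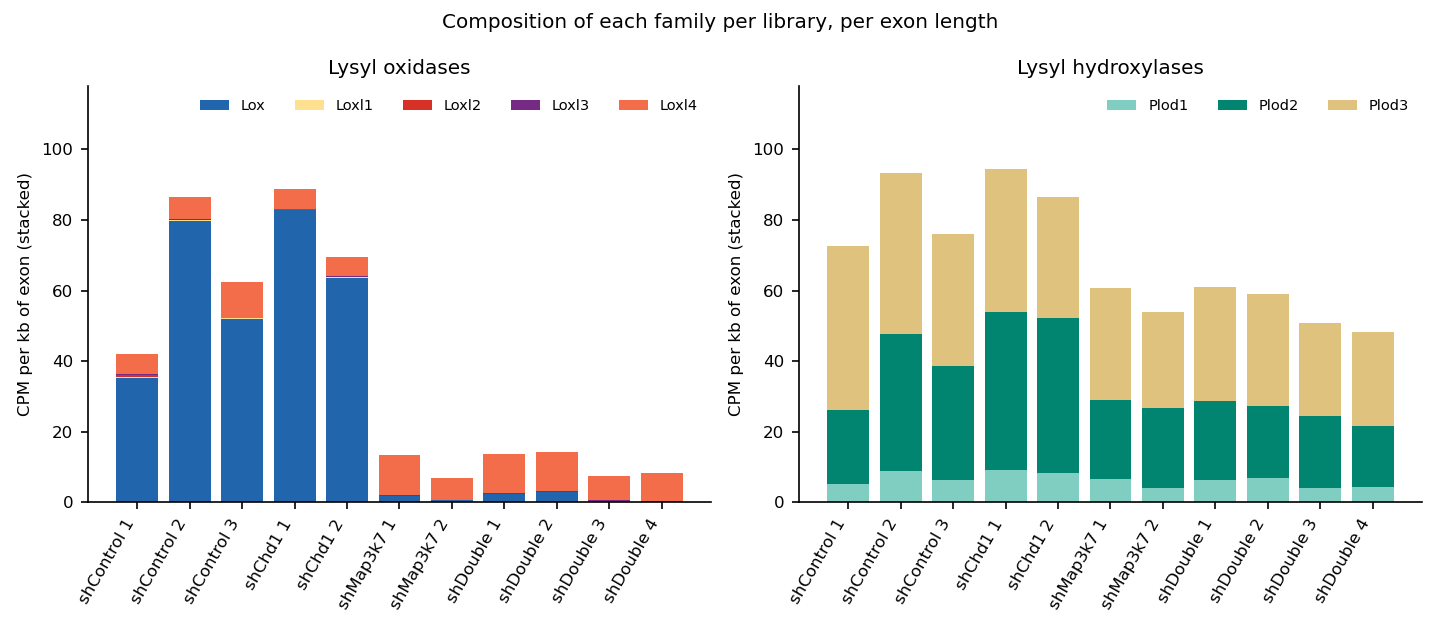
Level per length (TMM-scaled CPM per kilobase of exon) of each oxidase and each hydroxylase, stacked for each of the 11 libraries. Lox fills most of the oxidase bars in shControl and shChd1 and Loxl4 most of the far shorter bars of the Map3k7 clones, and Plod2 and Plod3 together fill most of every hydroxylase bar.

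Loxl1, Loxl2 and Loxl3 were scarce in every library, and their values rest on few counts. Loxl1, known for elastic fibre upkeep (chromosome 9, 58287738 to 58313186, minus strand), had 6, 17 and 6 counts in shControl, 7 and 4 in shChd1, 1 and 0 in shMap3k7, and 2, 0, 0 and 0 in shDouble. It did not pass the filter on low counts and is left out of the counts of called genes among 7, but it was among the called genes of some alternative fits described in the closing section. Its counts were summed over each group and divided by the summed TMM-scaled library totals. The ratio of shControl to shMap3k7 was 15.8, with an exact 95% interval of 2.62 to 646 from 29 against 1 counts. The ratio to shDouble was 21.8 (5.52 to 189, 29 against 2 counts). These intervals cover counting error only, not the spread between lines, and are a description.

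Loxl2, an oxidase that also acts on basement membrane collagen (chromosome 14, 69609068 to 69695834, plus strand), was at 3.93, 0.623 and 0.495 CPM in shControl and at 1.18 and 0.759 CPM in shChd1. It was at 0.0650 and 0 CPM in shMap3k7 and at 0.265, 0.230, 0.0521 and 0.238 CPM in shDouble. All 6 libraries of the clones lay below the other 5. The shControl sum of 84 counts against 1 in shMap3k7 gave a ratio of 45.8 (8.01 to 1830), and without shControl replicate 1 the ratio was 16.4 (2.63 to 677, 21 against 1 counts). Against shDouble, with 16 counts, the ratio was 7.90 (4.59 to 14.4). Replicate 1 of shControl also stood apart in endothelial markers, which summed to 38.7 CPM there and to 0.0724 to 0.498 CPM in the other 10 libraries. Cdh5 (18.2 CPM), Pecam1 (17.0 CPM) and Kdr (2.93 CPM) led that sum, and its part in the Loxl2 value was not tested.

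Loxl3 (chromosome 6, 83034173 to 83052562, plus strand) was at 0.874, 0.623 and 0.330 CPM in shControl, 0.871 and 1.01 CPM in shChd1, 0.455 and 0 CPM in shMap3k7 and 0.505 to 0.654 CPM in the 4 shDouble libraries. The shDouble libraries lay inside the shControl range. Its exons share 535 bases with Htra2 on the opposite strand. Because no source used here gives a strand setting for the counting, reads from shared stretches may be split between both genes and the Loxl3 values are uncertain.

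The hydroxylases were all abundant and differed far less between lines than Lox. Plod3, which also transfers sugars to hydroxylysine (chromosome 5, 136987019 to 136996648, plus strand), was at 210, 206 and 170 CPM in shControl and 183 and 155 CPM in shChd1. It was at 144 and 123 CPM in shMap3k7 and at 146, 144, 119 and 121 CPM in shDouble. All 6 libraries of the Map3k7 clones lay below the other 5, the nearest pair being 146 and 155 CPM. The log2 difference from shControl was -0.55 ± 0.14 in shMap3k7 and -0.56 ± 0.12 in shDouble. Plod3 shares 529 exon bases with Znhit1 on the opposite strand, which limits its value in the same way as for Loxl3.

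Plod2, which hydroxylates lysines of the collagen telopeptides (chromosome 9, 92542223 to 92608428, plus strand), was at 113, 210 and 174 CPM in shControl and highest in shChd1, at 242 and 237 CPM. It was at 122 CPM in both shMap3k7 libraries and at 120, 110, 110 and 94.0 CPM in shDouble. The Map3k7 clones lay close to the lowest control library, replicate 1, on either side of it, so that the ranges of shMap3k7 and shDouble overlapped with shControl and not with shChd1. The log2 difference from shControl was -0.45 ± 0.21 in shMap3k7 and -0.61 ± 0.17 in shDouble, and shDouble differed from shChd1 by -1.14 ± 0.19. Plod2 shares 346 exon bases with the opposite-strand transcript Gm38391.

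Plod1, which acts on lysines of the collagen helix (chromosome 4, 147909753 to 147936767, minus strand), was at 34.8, 59.1 and 42.0 CPM in shControl and 62.4 and 55.4 CPM in shChd1. It was at 43.3 CPM in clone 1 and 27.6 CPM in clone 7 of shMap3k7, and at 42.4, 45.9, 27.2 and 28.3 CPM in shDouble. Clone 1 lay inside the control range and clone 7 below it. The log2 difference from shControl was -0.35 ± 0.29 in shMap3k7 and -0.33 ± 0.24 in shDouble.

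Per length, Plod3 was the largest hydroxylase in shControl, at 48.9% to 64.0% of the family sum, ahead of Plod2 at 28.9% to 42.4% and Plod1 at 7.10% to 9.37%. In shChd1 the order of the leading pair turned, with Plod2 at 47.5% to 50.8% and Plod3 at 39.7% to 42.8%. The family sum was 72.5 to 93.2 CPM per kilobase in shControl, 86.4 to 94.4 in shChd1 and 48.3 to 60.9 in the Map3k7 clones.

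**Figure D3:**
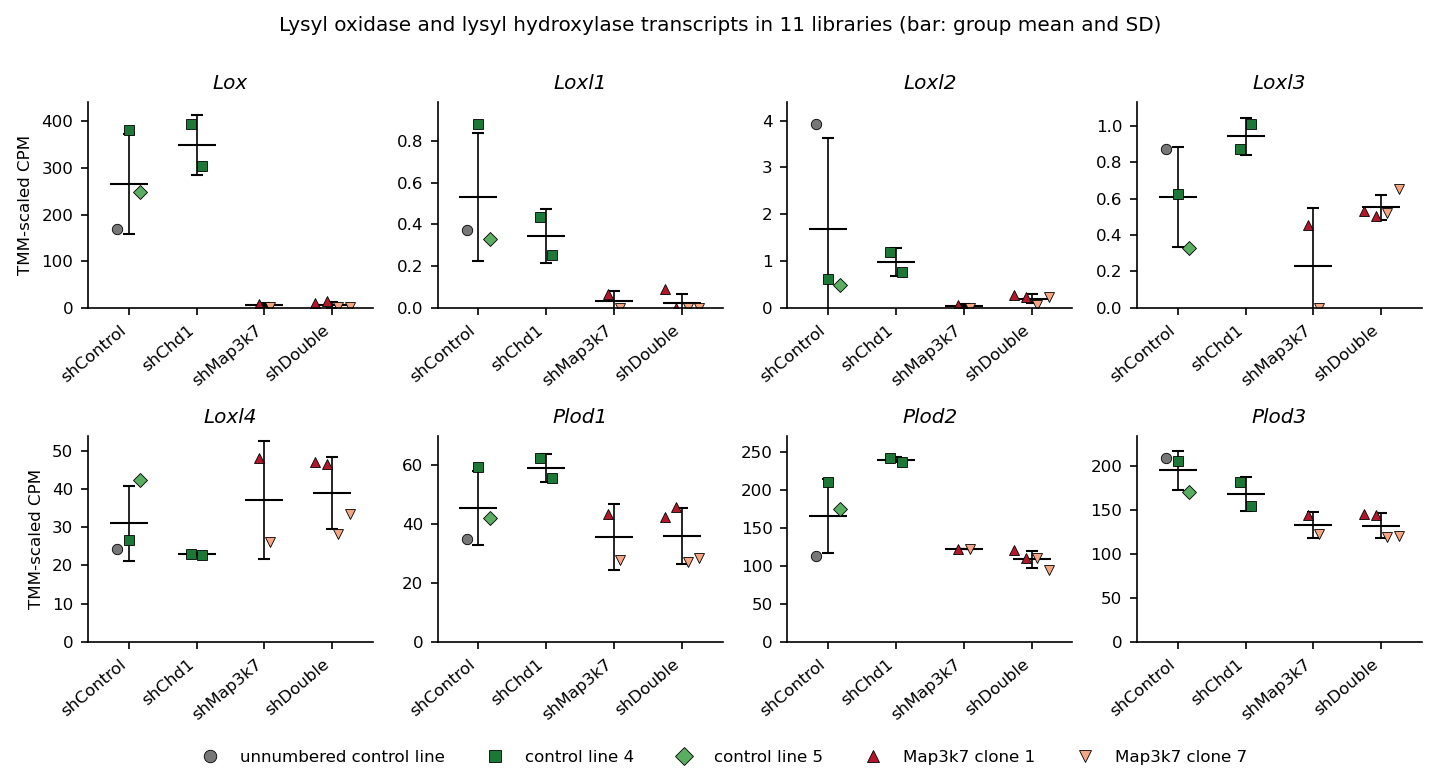
TMM-scaled CPM of the 8 genes in each library by group, with 1 point per library, the group mean as a line and its SD as a bar drawn only above 0; each panel has its own linear axis. Lox is at 168 CPM or more in the shControl and shChd1 libraries and at 13.6 CPM or less in the others, and Loxl4 and Plod1 form separate sets of points for clone 1 and clone 7.

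Of the 8 genes, 7 passed the filter on low counts. An edgeR quasi-likelihood fit over 14346 genes called a gene changed at a Benjamini-Hochberg adjusted p under 0.05. In shMap3k7 against shControl it called 3 of the 7 lower (Lox, Loxl2 and Plod3) and 0 higher, where 7.08% of all genes were called lower and 4.86% higher. Without shMap3k7 replicate 1, and likewise without replicate 2, 0 of the 7 were called, and with counts summed per line the 1 call was Lox. In shDouble against shControl it called 4 lower (Lox, Loxl2, Plod2 and Plod3) and 0 higher, where 13.6% of all genes were called lower and 10.2% higher, and with counts summed per line again only Lox of the 7. In shDouble against shChd1 it called Lox and Plod2 lower, 2 of the 7, and 0 higher, where 22.2% of all genes were called lower and 22.6% higher. With only these 2 groups in the fit it was 6, where 6721 of 14037 genes were called in either direction. The CPM ranges of the Map3k7 clones lay wholly below all other libraries for Lox, Loxl2 and Plod3, 3 of 7, where 12.8% of all genes did so. Loxl2 passed the filter through the libraries without the Map3k7 hairpin, since it had 1 and 0 counts in shMap3k7. Nothing is read from these counts, since the genes were chosen with these comparisons in view and the comparisons share libraries.

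**Figure D4:**
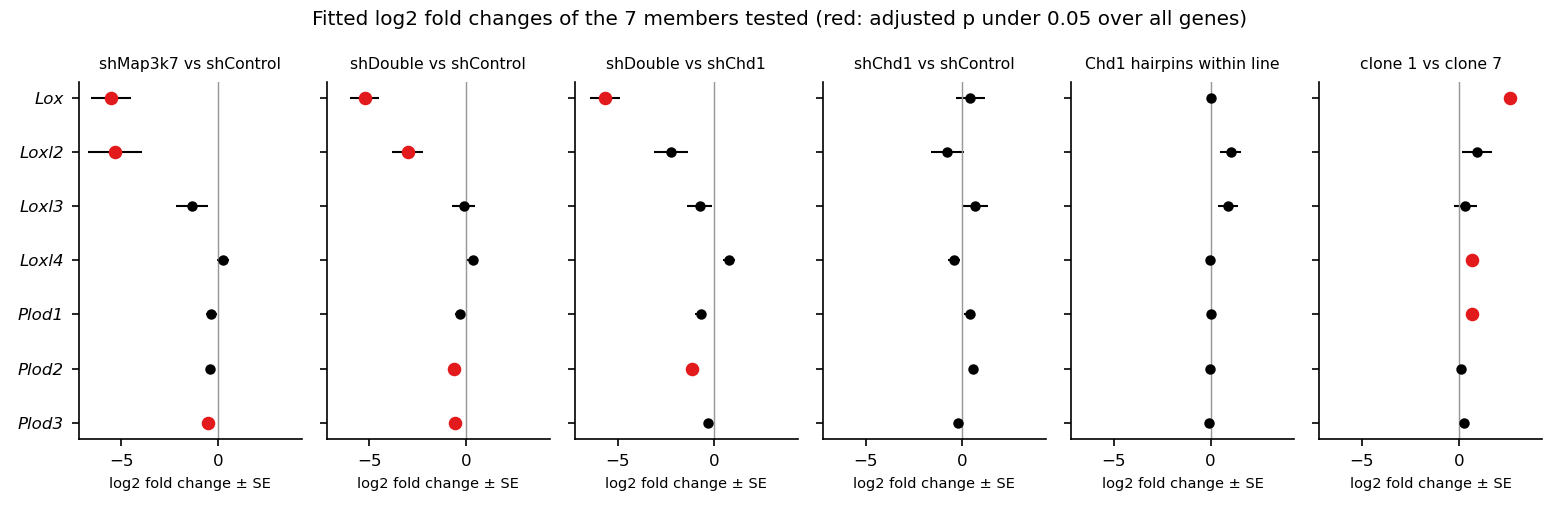
Log2 fold change with its SE for the 7 genes that passed the filter, in each comparison except shDouble against shMap3k7 and the interaction. Red points are called by edgeR at an adjusted p under 0.05. Calls in the panels that compare Map3k7 clones with other lines are a description, and Lox lies between -5.64 and -5.24 there. In clone 1 against clone 7, Lox, Loxl4 and Plod1 are called higher.

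The effect of the Chd1 hairpins was tested next. These comparisons share libraries with those in view when the genes were chosen, so their p-values are not independent of that choice. In shChd1 against shControl, edgeR called 0 of the 7 genes, where 2.91% of all genes were called. Plod2 was the 1 gene of the 7 with an unadjusted p under 0.05. Its 2 shChd1 libraries lay above all 3 shControl libraries, with a log2 difference of 0.53 ± 0.20 (adjusted p = 0.143). Without shControl replicate 2, which comes from control line 4 as both shChd1 libraries do, that difference was 0.74 (adjusted p = 0.0222). That fit called 2650 of 14194 genes. Against that replicate alone, the mean Plod2 change was 0.19. Lox differed by 0.39 ± 0.75 (adjusted p = 0.780), Loxl4 by -0.44 ± 0.32 (adjusted p = 0.418) and Plod3 by -0.21 ± 0.14 (adjusted p = 0.376). Loxl4 was lower in both shChd1 libraries than in all 3 shControl libraries. Ranges did not overlap for Plod2 and Loxl4, 2 of 7, where 46.4% of all genes had ranges that did not overlap. Epithelial markers differed in the same comparison, with 6 of 9 called lower, and the part of this in the Plod2 and Loxl4 values was not tested.

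In shDouble against shMap3k7, edgeR called 0 of the 7 genes and 0 genes in all (0.0%), with 0 of the 7 and 115 of all genes at an unadjusted p under 0.05. DESeq2 and limma voom also called 0 genes there. The interaction, which tests whether the Chd1 hairpin difference depended on the Map3k7 hairpin, gave 0 calls among the 7 and 0 in all (0.0%). At an unadjusted p under 0.05 it held 1998 genes, of which Plod2 was the 1 member, and DESeq2 called 395 genes and limma voom 0, none of the 7. The Plod2 interaction was -0.69 ± 0.28 (adjusted p = 0.318). This contrast sets shChd1, from control line 4 alone, against every shControl line, so the line 4 background enters it. Against their own line, the mean Plod2 changes were 0.19 in control line 4, -0.0814 in clone 1 and -0.26 in clone 7. With the line as a replicate block, the interaction called 11 of 14346 genes. Without shControl replicate 2 it called 1006 of 14194.

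Each Chd1 hairpin library can also be set beside the library of its own line without one. Over 3 lines and 6 hairpin libraries, this test called 0 of the 7 genes, where 4 of all genes (0.0279%) were called and 704 had an unadjusted p under 0.05, 0 of the 7 among them. DESeq2 called 3 genes and limma voom 19. Lox differed by 0.00 ± 0.20 (adjusted p = 0.999), since it was higher with both hairpins in clone 1 and lower with both in clone 7. Plod2 differed by -0.05 ± 0.09, Plod3 by -0.11 ± 0.07, Plod1 by 0.01 ± 0.06 and Loxl4 by -0.01 ± 0.09. Loxl2 (1.04 ± 0.55, adjusted p = 0.937) and Loxl3 (0.92 ± 0.52, adjusted p = 0.937) were higher in 6 of 6 hairpin libraries than in their own line. No more than 19 counts were found in any of these libraries. The libraries without a hairpin in control line 4, clone 1 and clone 7 had 12, 1 and 0 counts of Loxl2. Of Loxl3 they had 12, 7 and 0, so in clone 7 any count is higher. The share of all genes higher in 6 of 6 was not counted, and nothing is read from this.

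The 2 Map3k7 clones differed from each other in Lox, Loxl4 and Plod1. With 3 libraries of each clone, edgeR called 3 of the 7 genes higher in clone 1 and 0 higher in clone 7, where 13.3% of all genes were called higher in clone 1 and 10.1% lower. Lox was higher by 2.64 ± 0.29 on the log2 scale (adjusted p = 4.2e-04), Plod1 by 0.66 ± 0.08 (adjusted p = 4.9e-04) and Loxl4 by 0.69 ± 0.10 (adjusted p = 0.00202). Each of these was higher in 3 of 3 clone 1 libraries than in any clone 7 library. Plod3 was higher in 3 of 3 as well, by 0.26 ± 0.09 (adjusted p = 0.0518). Ranges did not overlap for these 4 of 7, where 23.3% of all genes lay wholly higher in clone 1. Each clone is 1 line, so this test compares these lines and not the Map3k7 knockdown. Its libraries were also among those in view when the genes were chosen.

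Promoter sequence is shown for Loxl4 and Plod1, 2 of the 3 genes among the 8 with a RefSeq promoter entry (GRCm38.p6). Windows of 250 bases were cut where they met annotated exons, which left 243 bases for Loxl4 and 250 for Plod1. The third gene is not shown because too few bases were left. Both sequences are printed 5′ to 3′ on the gene's strand. Loxl4 lies at chr19:42612814-42613056 and Plod1 at chr4:147936777-147937026, both minus strand. Capitals mark a match to the NF-kB consensus.
Loxl4: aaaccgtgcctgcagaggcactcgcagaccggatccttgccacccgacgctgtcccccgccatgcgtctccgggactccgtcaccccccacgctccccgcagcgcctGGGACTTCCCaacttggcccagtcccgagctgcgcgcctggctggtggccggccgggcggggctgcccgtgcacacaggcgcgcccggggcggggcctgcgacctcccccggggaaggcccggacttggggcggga
Plod1: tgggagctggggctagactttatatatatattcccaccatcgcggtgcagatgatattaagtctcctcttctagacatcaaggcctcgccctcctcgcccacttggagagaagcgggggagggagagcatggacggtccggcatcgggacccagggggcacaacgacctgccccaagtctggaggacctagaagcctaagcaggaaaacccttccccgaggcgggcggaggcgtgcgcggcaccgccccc
The windows were searched on both strands for the HIF core ACGTG, the AP-1 site TGANTCA and the NF-kB consensus, a factor that TAK1 is known to activate. Loxl4 held 1 NF-kB match, Plod1 held 0, and neither window held the other motifs. Among 32851 RefSeq promoters of 250 bases, 7.25% held the NF-kB consensus, 16.6% the HIF core and 6.75% the AP-1 site. A match is a description of the letters only.

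The chromosomes that carry Loxl4, Plod1 and Plod3 also differed between the clones as a whole. The median log2 difference of clone 1 from clone 7 was 0.18 over 467 other genes of chromosome 19 (26.6% called higher against 12.8% elsewhere). It was 0.23 over 881 other genes of chromosome 4 (30.5% against 12.1%) and 0.23 over 968 of chromosome 5 (29.5% against 12.1%). Loxl4 exceeded 90.8% of the genes of its chromosome in this difference, Plod1 88.3% and Plod3 54.5%. Lox exceeded 98.3% on chromosome 18, whose median was -0.14. A second measure took only the 364 other chromosome 19 genes that averaged 5 CPM or more. Relative to the shControl mean, their median stood 0.50 to 0.53 higher on the log2 scale in clone 1 and 0.34 to 0.35 higher in clone 7. The part of these chromosome-wide differences in the single genes was not tested.

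**Figure D5:**
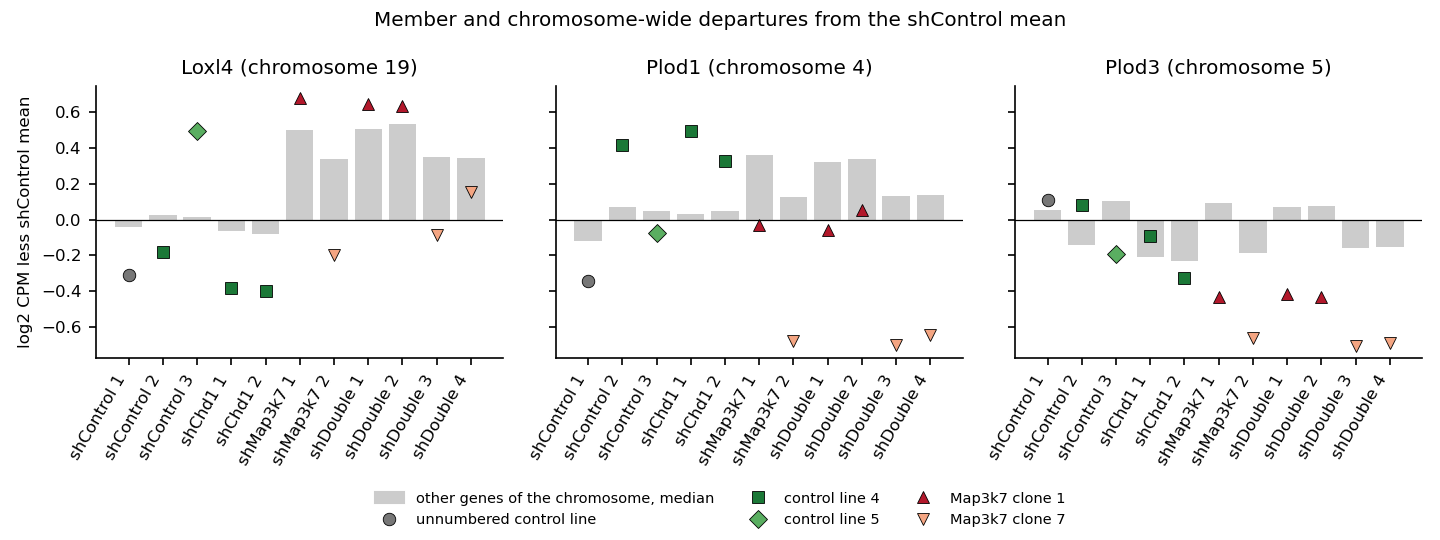
Log2 CPM less the shControl mean in each of the 11 libraries, for Loxl4, Plod1 and Plod3 (points, shape and colour by line). Grey bars give the median of the other tested genes of the same chromosome that averaged 5 CPM or more. The chromosome 19 bars stand at 0.50 to 0.53 in clone 1 and 0.34 to 0.35 in clone 7, with Loxl4 above them in clone 1 and below them in clone 7, while Plod1 and Plod3 lie below their chromosome's bars in both clones.

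Among the other collagen-modifying enzymes of the endoplasmic reticulum, 7 of 14 tested genes were lower and 0 higher in shMap3k7 than in shControl. Of all genes, 7.08% were called lower and 4.86% higher there. The list had a median log2 difference of -0.82 against -0.01 over all genes. P4ha3 and P4ha1, prolyl hydroxylase subunits, went from 29.0 ± 8.37 to 2.81 ± 1.72 CPM and from 73.1 ± 22.9 to 36.8 ± 3.82 CPM (SD, n = 3 and 2). P3h3, a prolyl 3-hydroxylase family member that works with Plod1, went from 13.5 ± 11.2 to 2.38 ± 1.25 CPM. In shDouble 10 of 14 were lower than in shControl (13.6% of all genes), and 9 of 14 lower than in shChd1 (22.2% of all genes). Between the clones 4 were higher in clone 1 and 1 lower (13.3% and 10.1% of all genes). Among them was P4ha2, at 15.2 ± 0.873 CPM in clone 1 and 6.19 ± 0.801 CPM in clone 7.

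Of 11 tested genes that process procollagen or activate and position Lox, 3 were lower and 2 higher in shMap3k7 than in shControl. The shares of all genes were 7.08% lower and 4.86% higher. Adamts2, which removes the amino propeptide of procollagen, went from 26.1 ± 15.9 to 0.698 ± 0.344 CPM, and Pcolce, the enhancer of the carboxy propeptide cleavage, from 55.5 ± 41.4 to 6.31 ± 3.78 CPM. Thrombospondin 1 (Thbs1) went the other way, from 1113 ± 450 to 3119 ± 263 CPM. In shDouble 5 were lower and 4 higher than in shControl (13.6% and 10.2% of all genes). Against shChd1, 7 were lower and 3 higher in shDouble (22.2% and 22.6% of all genes). Fbln5, a scaffold protein of elastic fibres, was 2.68 ± 0.45 (log2) higher in clone 1 than in clone 7, and Pcolce differed by -1.18 ± 0.21.

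Copper reaches the oxidases through the secretory pathway pump Atp7a, which was at 25.1 ± 7.55 CPM in shControl, 14.4 ± 1.39 CPM in shMap3k7 and 14.3 ± 1.56 CPM in shDouble. It was the 1 of 5 copper genes called lower in either group, and 0 were called higher. Of all genes, 7.08% were called lower in shMap3k7 and 13.6% in shDouble. Against shChd1, 4 of 5 copper genes were lower in shDouble and 1 higher (22.2% and 22.6% of all genes). Of the substrates, 2 of 10 tested genes were lower in shMap3k7 and 6 of 10 in shDouble than in shControl, with 0 higher in both. Against shChd1, 5 were lower in shDouble and 2 higher, among these the basement membrane collagen Col4a1, at 24.9 ± 7.35 CPM in shChd1 and 207 ± 27.3 CPM in shDouble. Col5a1 went from 125 ± 38.1 CPM to 0.536 ± 0.574 CPM in shMap3k7 and 0.801 ± 0.862 CPM in shDouble. Col3a1, which is also in the fibroblast list, lay between 1.21 and 34.0 CPM in shControl and between 0 and 0.0724 CPM in shMap3k7.

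Lox and Plod2 are textbook targets of hypoxia-inducible factors. Of 14 other such targets, 5 were lower in shMap3k7 and 8 in shDouble than in shControl, with 0 higher. Of all genes, 7.08% and 13.6% were called lower. Egln3, the oxygen-sensing prolyl hydroxylase that HIF induces, went from 35.0 ± 29.4 to 2.04 ± 2.17 CPM in shMap3k7, and the glycolytic regulator Pfkfb3 from 24.4 ± 12.4 to 7.13 ± 1.69 CPM. Against shChd1, 11 of 14 were lower in shDouble and 1 higher (22.2% and 22.6% of all genes). Between the clones 4 targets were higher in clone 1 and 5 lower, Car9 by 2.06 ± 0.20 and Vegfa by -0.66 ± 0.13. Of 15 tested regulators of these genes, 6 were lower in shMap3k7 and 8 in shDouble than in shControl, and 11 in shDouble than in shChd1, with 0 higher. Zeb1 and Zeb2, repressors of epithelial genes, went from 31.7 ± 16.0 to 0.460 ± 0.374 CPM and from 24.6 ± 16.5 to 2.92 ± 0.997 CPM in shMap3k7. Tgfb1, an inducer of Lox in many cells, went from 44.6 ± 14.7 to 17.9 ± 1.60 CPM. In shChd1 against shControl, 0 genes of these 6 lists were called except Pcolce2, which was lower by -1.02 ± 0.15. The fibroblast marker sums given above differed in the same comparisons of Map3k7 clones with other lines, and their part in the list counts was not tested. All list counts are read beside the shares of all genes given above and carry no test of their own.

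The genes whose log2 CPM followed each member most closely over the 11 libraries are given as a description, since the libraries share lines. Closest to Lox were P4ha3 (r = 0.989), at 20.6 to 37.3 CPM without the Map3k7 hairpin and 1.37 to 5.28 CPM with it, then Sirt2 (0.989) and Vasn (0.988). Closest to Plod2 were Ccpg1 (0.991), Slc11a2 (0.985) and Gabbr1 (0.982), and closest to Plod1 were App (0.984), Tanc1 (0.974) and Mesd (0.972). Plod3 was followed by Wbp1l (0.963), Timp1 (0.957) and Gpr108 (0.957), and Loxl4 by Atp10a (0.959), Ndc1 (0.952) and Elof1 (0.948). Loxl2 and Loxl3, with few counts, reached 0.935 with Srf and 0.867 with Lamtor3.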

How the data were processed

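RNA of 11 WFU3 libraries was sequenced, and the authors' deposited table holds estimated counts per gene, not whole numbers. Per the submitters' processing notes, Bowtie2, RSEM 1.3.1, limma and the build GRCm38 were used, with no roles given there. A second deposited table holds log2 values for 17966 genes. For the 17963 genes in both tables these log2 values equal log2 of the deposited count plus 0.5, up to 1 constant per library, within 5.02e-09, and they were not used further. The strand setting of the counting is not given in the sources used here.

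Expected counts were rounded to whole numbers (7.83% to 9.11% of the values in a library were not whole). edgeR 4.0.16 in R 4.3.3 scaled them by TMM, kept 14346 genes (filterByExpr, minimum count 10, minimum total 15) and fitted a quasi-likelihood model of 4 group means to all 11 libraries. The test of hairpins within line and that of clone 1 against clone 7 used line and Chd1 hairpin as terms. P-values were adjusted by Benjamini-Hochberg over all genes tested and called under 0.05, and an SE is the absolute log2 fold change divided by the square root of F. The procedure was also run on simulated counts, with each library drawn independently and changes placed only in well-counted genes. That run does not stand for libraries that share a line or for genes with few counts, and no result here rests on it. Lengths, positions and exon overlaps come from GENCODE M21 (GRCm38). A floor is 3 counts, and intervals (95%, exact) cover counting error only, since reads without molecular identifiers are not independent molecules. No DNA sequence is given for Lox.

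Libraries of 1 line are paired by that line: the clone 1 minus clone 7 difference correlated between shMap3k7 and shDouble libraries (r = 0.651 over 10329 genes). The 8 genes, the 6 gene lists and the 5 marker lists were chosen with earlier results of these data known. From each list up to 3 called genes were named, those with the largest absolute log2 fold change whose higher group averaged 5 CPM or more, and the text gives a part of them. The likeness lists take the 3 highest r. Alternatives were DESeq2 1.42.0 size factors and its Wald test, limma 3.58.1 voom, no filter, only the groups compared, counts summed per line, the line as a block, and each library left out.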

Additional observations from a re-analysis of the deposited data

Results flagged for a closer look

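The rule for a sample far from the others marks about 1 in 20 groups of 4 by chance if values are independent and normal. The 4 shDouble libraries come from 2 clones and the counts here are low, so that rate does not hold for them. In shDouble, Loxl1 was flagged: 1 library had 2 counts and the other 3 had 0, so the gap was the whole range (ratio 1.0). Loxl2 was the other, with 1 library of clone 7 at 0.0521 CPM, below 0.230 to 0.265 CPM in the other 3 (gap over range 0.832).

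For Lox, Loxl4, Plod2 and Plod3, both Chd1 hairpins moved the value one way in one line and the other way in another. Each is set against the single library of that line without a Chd1 hairpin. The differences between lines were not tested, and each rests on 1 baseline library per line. The share of all genes that do the same was not counted, so nothing is read from how many members did. The mean log2 change of Lox was 0.51 in clone 1 and -0.96 in clone 7. For Loxl4 it was -0.21 in control line 4, -0.0377 in Map3k7 clone 1 and 0.23 in clone 7. Plod2 changed by 0.19 in control line 4, -0.0814 in clone 1 and -0.26 in clone 7. Plod3 changed by -0.29 in control line 4, 0.00923 in clone 1 and -0.0361 in clone 7. In clone 1 the Plod3 values were nearly equal, at 146 and 144 CPM with a hairpin and 144 CPM without.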

How the results depend on the processing

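The count of called genes depended on the fit, as did the number called among all genes. In shMap3k7 against shControl it was 1 (Lox) with only the groups compared (227 of 13508 genes called) and 1 (Lox) with counts summed per line (400 of 14909), and 0 to 3 as each library was left out. It was 0 without shMap3k7 replicate 1 (244 of 15033) or replicate 2 (484 of 15024). In shDouble against shControl it was 2 (Lox and Plod3) with only the groups compared (2511 of 13437) and 1 (Lox) with counts summed per line (554 of 14909). It was 5, Loxl1 included, without a filter (3134 of 24887) and without either shChd1 or either shMap3k7 replicate, fits whose filter kept Loxl1. In shDouble against shChd1 it was 5 with the DESeq2 Wald test (6615 of 14346), 5 with Loxl1 without a filter (5990 of 24887), 6 with only the groups compared (6721 of 14037) and 2 to 5 as each library was left out. It was 5 without shControl replicate 3 and 4 without shControl replicate 1 or 2, either shMap3k7 replicate or shDouble replicate 2. In shChd1 against shControl it was 0 to 1 as each library was left out, the 1 being Plod2 without shControl replicate 2 (2650 of 14194). Fewer samples enter some of these fits, and otherwise the cause was not tested.

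With the line as a replicate block, shChd1 against shControl gave Lox at -0.12, Loxl2 at 0.64 and Plod1 at -0.00499, each of the opposite sign to the fit without the block, and no call among the 7 tested genes changed. Within line, Lox was -0.13 with DESeq2 and -0.0324 with limma voom. Leaving out each library moved log2 values across 0 in these cases: Loxl4 in shMap3k7 against shControl (-0.25 to 0.62), Loxl3 in shDouble against shControl (-0.43 to 0.20), Loxl2 in shChd1 against shControl (-1.21 to 0.79) and Loxl3 between the clones (-0.10 to 0.72). Within line the ranges were -0.24 to 0.20 for Lox, -0.11 to 0.0884 for Loxl4, -0.0155 to 0.0329 for Plod1 and -0.17 to 0.0645 for Plod2. Without shControl replicate 1, Loxl2 in shDouble against shControl was -1.47 and was no longer called. Of the single-gene values printed, 434 kept their direction and side of the threshold when a library was left out, 15 lost a call, 18 gained one and 17 changed sign. Under the other alternatives 199 kept both, 10 lost a call, 13 gained one and 5 changed sign. Depth limits Loxl1, Loxl2 and Loxl3, with at most 12 counts in any library of the Map3k7 clones and, apart from 63 for Loxl2 in shControl replicate 1, at most 19 in the others.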
